A study of Rattus norvegicus with 14 samples.

Results

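The genes of 5 liver enzymes that dismantle nucleotide bases were followed on the arrays: Dpyd, Dpys and Upb1, which break down uracil and thymine, and Xdh and Uox, which oxidise purines. They were found by gene symbol in the platform annotation; the rule used no signal, but it was written with earlier results of these data known. All 5 of 5 were measured, among 2670 genes with a symbol, by 9 of the 4502 probe sets in the deposited table. Each probe set reads 1 transcript through several short oligonucleotides.

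The 14 arrays were 1-colour Affymetrix arrays of rat liver, taken from the left lateral lobe. Rats of the strain called Kyoto in the labels ate chow with 1% orotic acid for 1, 3 or 14 days (2 arrays each). Wistar controls ate plain chow (3 arrays, day 0), and Wistar rats ate the same supplemented chow for 3 days (2 arrays) or 14 days (3 arrays). Kyoto controls and Wistar rats at day 1 were not analysed here, so in Kyoto rats feeding days could be compared with each other but not with plain chow. Below, fed Kyoto and fed Wistar mean the arrays of days 3 and 14 only. Kyoto rats at day 1 also ate orotic acid but are left out of that comparison. The labels used here give neither sex nor age, and do not state that each array was a separate animal, so p-values measure the spread between these samples.

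Dietary orotic acid enters the pyrimidine pool as orotidine and then uridine nucleotides, and a fatty liver develops in rats fed it. Surplus uracil is reduced by dihydropyrimidine dehydrogenase (Dpyd), which governs the rate of the route. The ring is then opened by dihydropyrimidinase (Dpys), and beta-ureidopropionase (Upb1) releases beta-alanine, or beta-aminoisobutyrate when thymine was the source. Purines end differently: xanthine dehydrogenase (Xdh) makes urate, and urate oxidase (Uox), a peroxisomal enzyme that rats keep and humans have lost, takes urate on towards allantoin.

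Signals below are the deposited probe set signals after quantile normalisation between arrays, in arbitrary units of brightness. Signals under 115, the 25th percentile of all values, were set to that floor before testing. Differences are on the log2 scale with their standard error (SE), from 1 limma model of all 14 arrays with 8 residual degrees of freedom. A gene passed when its Benjamini-Hochberg adjusted p over 1909 features was under 0.05. Each gene was tested by its brightest probe set. Differences for its other probe sets come from a fit on every probe set with no filter. The signals of different genes are not set against each other, because a probe set's brightness also depends on its probes.

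Blank rows occurred on 3 arrays (Wistar control 3, Kyoto day 1 replicate 1 and the third array of Wistar day 14), none of them in the 9 probe sets described here. Kyoto day 1 replicate 1 was the array least like the others, with a median correlation of 0.895 over all features. Wistar control 2 correlated best with a Kyoto array (day 3 replicate 2, r = 0.96), and Wistar day 14 replicate 3 and Wistar control 3 correlated best with each other (r = 0.97). Hepatocyte markers were bright throughout, with 7 of 8 markers on the array summing to between 101083 and 122107 on every array, as a liver label requires. In whole liver, fewer cells of a type and less RNA per cell cannot be told apart.

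By the adjusted p of limma's test, 0 of the 5 genes passed in any of the 8 comparisons. The unadjusted p was under 0.05 for 1 of 5 in Kyoto day 3 against day 1, for 3 of 5 in Kyoto day 14 against day 1, for 3 of 5 in fed Kyoto against fed Wistar, and for 0 of 5 in the other 5 comparisons. At that unadjusted threshold the share of all 1909 features was 5.87%, 10.2% and 14.4% in those 3 comparisons. In the others it was 5.19% in Wistar day 14 against control, 10.5% in Wistar day 3 against control, 4.45% in Wistar day 14 against day 3, 4.61% in Kyoto day 14 against day 3 and 5.19% in the strain by time comparison. Calls by the adjusted p were few over all features as well. Their share was 0% in Wistar day 14 against control, Wistar day 3 against control and Wistar day 14 against day 3. It was 0% in Kyoto day 3 against day 1 and in Kyoto day 14 against day 3, 0.0524% in Kyoto day 14 against day 1, 3.25% in fed Kyoto against fed Wistar, and 0% in the strain by time comparison. With 2 or 3 arrays a group, the intervals given below remain wide. The plot of signals by array shows the 5 genes in all 6 groups.

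**Figure D1:**
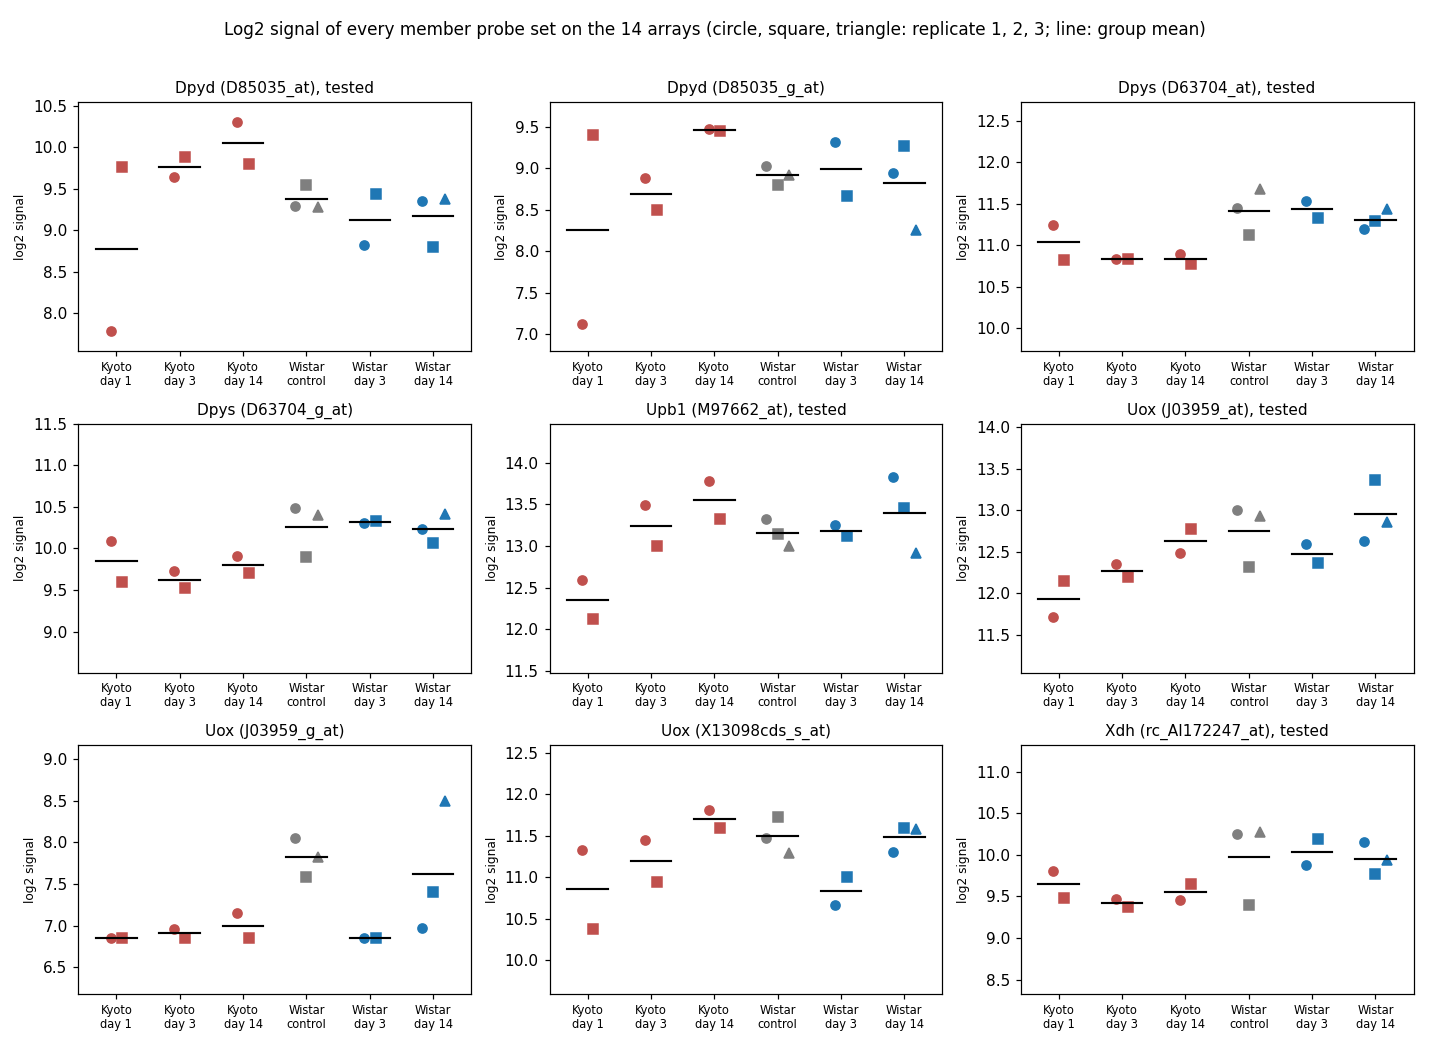
Normalised log2 signal (vertical axes, with the floor applied) of the 9 probe sets of Dpyd, Dpys, Upb1, Uox and Xdh, 1 panel each, on the 14 arrays by strain and feeding day. Each point is 1 array, its shape gives the replicate number assigned here, and each line is a group mean. Upb1 was between 4464 and 6172 on the Kyoto day 1 arrays and between 7674 and 14532 on all others.

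Dpyd, the first and rate-governing enzyme of uracil breakdown, was brighter in fed Kyoto livers than in fed Wistar livers on the probe set that was tested, D85035_at. Its signals were 221 and 870 in Kyoto rats at day 1, 800 and 950 at day 3, and 1263 and 894 at day 14. In Wistar rats they were 630, 751 and 621 in controls, 453 and 692 at day 3, and 654, 447 and 665 at day 14. The 4 Kyoto arrays of days 3 and 14 all lay above the 5 Wistar arrays of the same days and above the 3 controls. The difference between fed Kyoto and fed Wistar was 0.76 ± 0.32 (SE, n = 4 and 5), 1.69-fold, with a 95% interval of 0.06 to 1.45 and an adjusted p of 0.282 in the limma fit.

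The other Dpyd probe set, D85035_g_at, did not show this strain difference. It read 471 and 363 in Kyoto rats at day 3 and 711 and 701 at day 14, against 637 and 405 in Wistar rats at day 3 and 490, 617 and 304 at day 14, and the strains overlapped. In a fit on every probe set with no filter its strain difference was 0.17 ± 0.43 (SE). Over the 14 arrays the pair of Dpyd probe sets correlated at r = 0.63.

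Between Kyoto feeding days, Dpyd rested on 1 array. Kyoto day 1 replicate 1, at 221 on the first probe set and 139 on the second, was the dimmest of all arrays on both. The difference between day 14 and day 1 was 1.28 ± 0.48 (SE, n = 2 each), with an adjusted p of 0.409 in limma. Without that array it was 0.29. Without its partner, which leaves the dim array to stand for day 1, the difference was 2.27 with an adjusted p of 0.00278. For day 3 against day 1 the corresponding values were 0.99 ± 0.48 over all arrays, 0 without replicate 1 and 1.98 without replicate 2, the last with an adjusted p of 0.0109. In Wistar rats, day 14 against control differed by -0.20 ± 0.39 and day 3 against control by -0.25 ± 0.44. The group means ran from Kyoto day 14 and day 3 down through Wistar control, day 14 and day 3 to Kyoto day 1, and of the neighbours in that order only Kyoto day 3 and Wistar control, with a gap of 0.39, did not overlap.

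Dpys, which opens the dihydrouracil ring, was dimmer in fed Kyoto livers on both of its probe sets. On D63704_at its signals were 2440 and 1826 in Kyoto rats at day 1, 1831 and 1834 at day 3, and 1917 and 1752 at day 14. In Wistar rats they were 2793, 2238 and 3281 in controls, 2971 and 2569 at day 3, and 2357, 2499 and 2772 at day 14. The highest of the 4 Kyoto arrays of days 3 and 14 was thus below the lowest of the 5 Wistar arrays. The strain difference was -0.53 ± 0.17 (SE, n = 4 and 5), 1.44-fold lower in Kyoto, with a 95% interval of -0.89 to -0.17 and an adjusted p of 0.109 in limma. With array weights, which count arrays that fit poorly for less, it was -0.52 with an adjusted p of 0.0441. This was the only 1 of 24 alternatives in which Dpys passed here, and over them the difference ran from -0.58 to -0.47. Array weights also raised the calls over all features in this comparison from 62 to 135.

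The second Dpys probe set, D63704_g_at, read 847 and 735 in Kyoto rats at day 3 and 961 and 830 at day 14. In Wistar rats it read 1265 and 1291 at day 3 and 1197, 1076 and 1369 at day 14, again without overlap. Its strain difference was -0.57 ± 0.15 (SE), with an adjusted p of 0.149 in the fit on every probe set. Both Dpys probe sets share 1 transcript accession, and they correlated at r = 0.92 over the arrays.

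On the tested probe set, no Dpys difference between feeding days exceeded its SE. Kyoto day 3 and day 14 each differed from day 1 by -0.20 ± 0.25, with overlapping arrays, and by -0.41 when replicate 2 of day 1 was left out. Day 14 against day 3 differed by 0.00 ± 0.25 in Kyoto rats and by -0.12 ± 0.23 in Wistar rats, and Wistar day 14 against control by -0.11 ± 0.20. In the order of group means Wistar day 3, control and day 14 came first, then Kyoto day 1, day 3 and day 14, and no neighbouring pair in that order was separated without overlap.

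Upb1, which releases beta-alanine and closes the route, was dim at day 1 of feeding in Kyoto rats and bright at later days. Its single probe set, M97662_at, read 6172 and 4464 in Kyoto rats at day 1, 11509 and 8219 at day 3, and 14114 and 10301 at day 14. Wistar rats gave 10301, 9059 and 8178 in controls, 9773 and 8884 at day 3, and 14532, 11266 and 7674 at day 14. The 2 Kyoto day 1 arrays were the lowest of all 14. The difference between Kyoto day 14 and day 1 was 1.20 ± 0.28 (SE, n = 2 each), 2.30-fold, with a 95% interval of 0.59 to 1.81. By p it ranked 8 of 1909 features, at an unadjusted p of 0.000885 and an adjusted p of 0.152 in limma. Day 3 against day 1 was 0.89 ± 0.28, 1.85-fold, at an adjusted p of 0.782.

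Without Kyoto day 1 replicate 1, the array least like the others, the Upb1 difference was 1.43, and the range over the alternatives was 0.97 to 1.43, with adjusted p-values from 0.102 to 0.915. The summed signal of 6 stellate cell and fibroblast markers was 10441 to 12388 at Kyoto day 1. It was 6044 to 8533 at day 3 and 8617 to 8708 at day 14. This sum thus fell from day 1 while Upb1 rose, but was higher at day 14 than at day 3. Sums of 2 blood markers were 10668 to 16369, 9694 to 12426 and 7702 to 12679 on those days. Sums of 4 Kupffer cell and macrophage markers were 5015 to 5226, 5264 to 5985 and 3886 to 5552. Hepatocyte markers summed to 108221 to 115474, 113672 to 122107 and 108712 to 109610. The part of these markers in the result was not tested. In the order of group means, the gap of 0.80 between Kyoto day 1, the lowest group, and Wistar controls was the only one between neighbours wider than both SDs and free of overlap.

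At days 3 and 14 the strains overlapped in Upb1. Fed Kyoto against fed Wistar differed by 0.11 ± 0.19 (SE, n = 4 and 5), with a 95% interval of -0.30 to 0.52. Within Wistar rats, day 14 against control was 0.24 ± 0.23 and day 3 against control 0.03 ± 0.26, both with overlapping arrays.

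Xdh, which makes urate, was dimmer in fed Kyoto livers, as Dpys was. Its probe set rc_AI172247_at read 896 and 716 in Kyoto rats at day 1, 710 and 664 at day 3, and 706 and 801 at day 14. In Wistar rats it read 1221, 678 and 1246 in controls, 939 and 1168 at day 3, and 1147, 876 and 979 at day 14. All 4 Kyoto arrays of days 3 and 14 were below all 5 fed Wistar arrays, and the control at 678 was as low as the Kyoto arrays. The strain difference was -0.51 ± 0.21 (SE, n = 4 and 5), 1.42-fold lower in Kyoto, with a 95% interval of -0.95 to -0.06 and an adjusted p of 0.26 in limma.

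Xdh is also made by endothelial cells, whose markers were set beside it. The 2 endothelial markers on the array, Pecam1 and Kdr, summed to 336 to 354 in Kyoto rats at day 3 and 390 to 474 at day 14, against 259 to 281 in Wistar rats at day 3 and 268 to 284 at day 14. At those days the sums were higher in the strain with lower Xdh. Each marker had the floor of 115 applied, so the fed Wistar sums lie close to the lowest sum possible. The sums of Kyoto day 1 (320 to 399) and of Wistar controls (271 to 368) overlapped those of Kyoto day 3. The part of these markers in the result was not tested. Markers of intestine, another Xdh-rich tissue, had 0 of 3 members on the array, as did those of kidney, which also holds Dpys and Upb1. Between feeding days no Xdh difference exceeded its SE. Kyoto day 3 against day 1 was -0.22 ± 0.31, without overlap. The others included -0.02 ± 0.25 for Wistar day 14 against control, 0.05 ± 0.28 for Wistar day 3 against control and -0.09 ± 0.31 for Kyoto day 14 against day 1. In the order of group means the 3 Wistar groups lay above the 3 Kyoto groups, and every neighbouring pair overlapped.

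Xdh and Dpys varied together over the arrays, with r = 0.80 over 14 arrays, the highest among the 10 pairs of the 5 genes. Dpyd and Dpys had r = -0.55, the lowest. Points of such a correlation share strain and array, so it describes these samples only. On a scale where the fed Kyoto mean is 1 and the fed Wistar mean is 0, Wistar control 2 stood at 1.17 for Xdh and at 0.44 for Dpys. Wistar controls 1 and 3 stood at -0.53 and -0.59 for Xdh and at -0.17 and -0.62 for Dpys. The plot of Dpys against Xdh shows where this control fell.

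**Figure D2:**
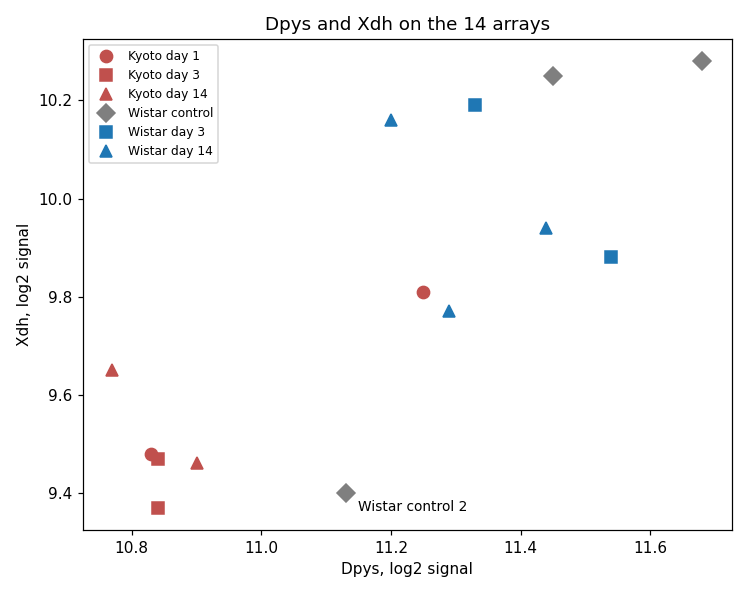
Normalised log2 signal of Xdh (rc_AI172247_at) against that of Dpys (D63704_at), 1 point per array, by strain and feeding day. The Kyoto arrays of days 3 and 14 gather at low values of both genes, apart from the fed Wistar arrays, and Wistar control 2 lies beside them for Xdh (678). Kyoto day 1 replicate 1 (Dpys 2440, Xdh 896) lies within the range of the fed Wistar arrays for both genes.

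Uox, which degrades urate, was read by 3 probe sets, and they did not give 1 picture of the strains. The tested set, J03959_at, read 3379 and 4530 in Kyoto rats at day 1, 5220 and 4693 at day 3, and 5702 and 6964 at day 14. In Wistar rats it read 8178, 5103 and 7821 in controls, 6185 and 5260 at day 3, and 6337, 10568 and 7426 at day 14. Within Kyoto rats each later day lay wholly above the earlier one. Day 14 against day 1 differed by 0.69 ± 0.28 (SE, n = 2 each), 1.61-fold, with a 95% interval of 0.08 to 1.30 and an adjusted p of 0.447 in limma. Day 14 against day 3 was 0.35 ± 0.28 and day 3 against day 1 was 0.34 ± 0.28. The stellate marker sums given beside Upb1 belong to the same arrays. By group mean, Wistar day 14, control and Kyoto day 14 came first, then Wistar day 3, Kyoto day 3 and Kyoto day 1. The neighbours free of overlap in that order were Kyoto day 3 and Wistar day 3, with a gap of 0.21, and Kyoto day 3 and day 1, with a gap of 0.34.

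The set X13098cds_s_at gave the same direction over Kyoto days. It read 2567 and 1335 at day 1, 2793 and 1962 at day 3, and 3602 and 3094 at day 14. In the fit on every probe set, day 14 against day 1 differed by 0.85 ± 0.30 (SE) at an adjusted p of 0.472. In Wistar rats this set dipped at day 3, with 2842, 3398 and 2506 in controls, 1626 and 2045 at day 3, and 2526, 3082 and 3061 at day 14. Day 3 against control was -0.67 ± 0.28 with an adjusted p of 0.555, and day 14 against day 3 was 0.66 ± 0.28 with an adjusted p of 0.951. On J03959_at the same comparisons were -0.27 ± 0.26, with overlap, and 0.47 ± 0.26, without overlap.

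The third set, J03959_g_at, was near the floor. It was at the floor on both Wistar day 3 arrays, on both Kyoto day 1 arrays and on 1 array each of Kyoto day 3 and day 14. In Wistar controls it read 265, 191 and 227, and at Wistar day 14 it read 126, 169 and 363. Between fed Kyoto and fed Wistar, J03959_at differed by -0.27 ± 0.19 and X13098cds_s_at by 0.29 ± 0.21, so the strain direction of Uox was not settled. Across arrays the 3 sets correlated at only 0.36 to 0.57.

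Counted over the 5 genes, each by its tested probe set, arrays that did not overlap were found as follows. In fed Kyoto against fed Wistar, 1 of 5 was higher (Dpyd), against 5.08% of all features, and 2 of 5 were lower (Dpys and Xdh), against 3.77%. In Kyoto day 14 against day 1, 3 of 5 were higher (Dpyd, Upb1 and Uox), against 19.1%. In Kyoto day 3 against day 1, 2 of 5 were higher (Upb1 and Uox), against 15.5%, and 1 of 5 was lower (Xdh), against 12.5%. Of the tested probe sets, only that of Uox was higher without overlap in Kyoto day 14 against day 3, where 18.9% of all features were, and in Wistar day 14 against day 3, where 11.5% were. Neither comparison of fed Wistar rats with controls separated a tested probe set. Of all features 3.46% were higher and 6.08% lower without overlap in Wistar day 14 against control, and 14.5% higher and 19.6% lower in Wistar day 3 against control. Among the other probe sets, Uox X13098cds_s_at and J03959_g_at were lower without overlap in Wistar day 3 against control. Both were higher without overlap in Wistar day 14 against day 3, and J03959_g_at was at the floor on both Wistar day 3 arrays. Dpyd D85035_g_at (0.77 ± 0.63) and Uox X13098cds_s_at (0.51 ± 0.30) were higher without overlap in Kyoto day 14 against day 3. Those sets were also higher without overlap in Kyoto day 14 against day 1. Dpys D63704_g_at was lower without overlap in fed Kyoto against fed Wistar. All Kyoto arrays carried lot batch 1 in the labels, while 3 Wistar arrays carried no lot batch. With the lot batch as a block, the difference between fed Kyoto and fed Wistar was 0.85 for Dpyd, -0.47 for Dpys and -0.41 for Xdh.

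The median difference of the 5 genes was 0.69 in Kyoto day 14 against day 1, beside 0.00 over all features, and 0.34 in Kyoto day 3 against day 1, beside 0.02. Without Kyoto day 1 replicate 1 these medians of the 5 genes were 0.29 and 0.005. The median was -0.27 in fed Kyoto against fed Wistar, beside 0.04. That value is the one of Uox on J03959_at, so it depends on the probe set chosen for Uox. There X13098cds_s_at gave 0.29, and J03959_g_at, near the floor, gave -0.28. In Wistar day 14 against control the median of the 5 genes was -0.02, beside -0.03, and in Wistar day 3 against control 0.01, beside -0.04. Whether the strains differed in how day 14 compared with day 3 was tested as an interaction, and for the 5 genes it lay between -0.13 and 0.24, with adjusted p-values from 0.96 to 0.972. The comparisons within Kyoto share arrays, as do those within Wistar, so they are not independent of each other. Equal binding of the probes to Kyoto and Wistar transcripts was not tested.

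**Figure D3:**
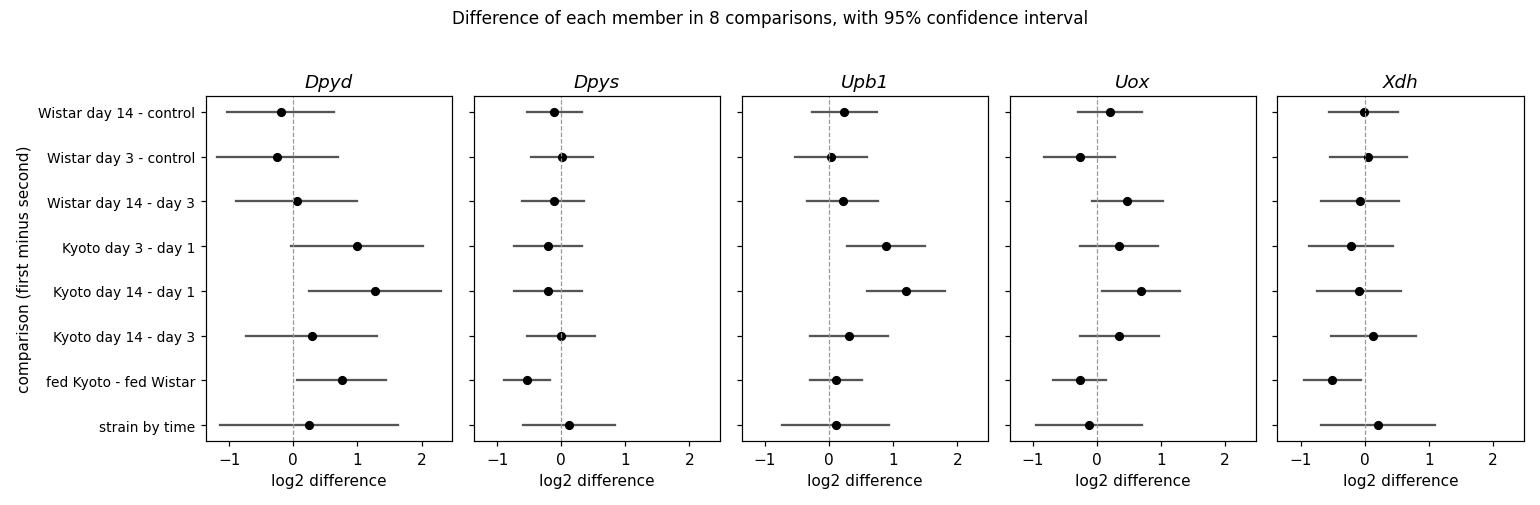
Log2 difference of each of the 5 genes in the 8 comparisons, first group minus second, with 95% intervals from the limma fit. Upb1 in Kyoto day 14 against day 1 (1.20) is farthest from 0 relative to its interval, and Dpys (-0.53), Xdh (-0.51) and Dpyd (0.76) have intervals that leave out 0 between fed Kyoto and fed Wistar.

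The stretches of 250 bases before the RefSeq transcription start are shown for Upb1, Uox and Xdh. Among the Kyoto feeding days Upb1 and Uox were both brightest at day 14, while Xdh was dim in fed Kyoto rats. Among those days Dpyd was also brightest at day 14 by group mean, and its stretch is not printed. They come from the GRCr8 assembly, a rat of another strain, and 4 of the 5 genes were in the table, Dpys not being listed. Capitals mark matches, on either strand, to TATAAA (the TATA box), CCAAT (the CCAAT box bound by NF-Y), TTGCNNAA (a core of the sites of C/EBP factors) or CAAAGTNCA (a form of the site of HNF4, a hepatocyte factor). The Upb1 stretch is chr20:13243017-13243266 on the minus strand, that of Uox chr2:238146880-238147129 on the plus strand, and that of Xdh chr6:27282069-27282318 on the plus strand, each written 5′ to 3′ in the direction of transcription.
Upb1: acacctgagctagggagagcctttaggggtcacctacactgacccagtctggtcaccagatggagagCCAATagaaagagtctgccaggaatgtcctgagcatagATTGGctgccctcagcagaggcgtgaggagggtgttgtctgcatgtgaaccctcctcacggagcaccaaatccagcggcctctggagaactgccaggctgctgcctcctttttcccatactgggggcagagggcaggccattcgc
Uox: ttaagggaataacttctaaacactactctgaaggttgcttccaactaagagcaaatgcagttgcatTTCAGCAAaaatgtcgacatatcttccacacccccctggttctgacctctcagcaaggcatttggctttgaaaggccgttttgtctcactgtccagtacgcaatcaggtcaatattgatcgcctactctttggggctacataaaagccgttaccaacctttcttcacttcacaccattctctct
Xdh: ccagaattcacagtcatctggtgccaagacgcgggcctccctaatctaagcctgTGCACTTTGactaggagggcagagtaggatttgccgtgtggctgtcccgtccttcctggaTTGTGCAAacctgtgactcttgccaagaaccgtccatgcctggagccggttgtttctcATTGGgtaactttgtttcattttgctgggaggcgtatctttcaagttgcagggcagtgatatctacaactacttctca

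Upb1 held CCAAT at 183 to 179 bases before the start and again, on the opposite strand, at 145 to 141. Uox held 1 C/EBP core at 184 to 177, and Xdh held a C/EBP core at 136 to 129, CCAAT at 78 to 74 and the HNF4 letters at 196 to 188. The matches did not overlap each other, and Dpyd had none. Over 33469 promoters of the same length, 34.0% held CCAAT, 9.22% the C/EBP core, 1.06% the HNF4 letters and 12.9% TATAAA. A match of letters is a description of the sequence, and nothing was measured here about binding.

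The genes around the 5 enzymes were read from 6 lists of 76 symbols, of which 19 were tested. Among their 152 values over the 8 comparisons 1 passed the threshold, that of Agxt2, a mitochondrial aminotransferase that uses beta-aminoisobutyrate, the thymine product of Upb1. Its log2 signals were 8.12 and 8.31 in Kyoto rats at day 3 and 8.31 and 8.69 at day 14, against 10.63 and 10.46 in Wistar rats at day 3 and 10.28, 10.88 and 10.30 at day 14. Agxt2 fell by 2.16 ± 0.38 (SE) in fed Kyoto relative to fed Wistar, 4.46-fold, with an adjusted p of 0.00819 in limma. The adjusted p was 0.0553 without Kyoto day 14 replicate 1 and 0.0753 when every probe set was tested. Wistar control 2 stood at 8.63 for Agxt2, among the Kyoto values, and controls 1 and 3 at 10.70 and 10.68.

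Agxt2 was 1 of 4 tested genes of the uracil and beta-alanine route beyond the enzymes above, beside Abat, Aldh6a1 and Csad, and the median strain difference of the 4 was -0.22. Of the purine breakdown list 2 of 14 were tested. Gda, guanine deaminase, which makes xanthine for Xdh, differed by 0.73 ± 0.28 (SE) between Kyoto day 3 and day 1 at an adjusted p of 0.782. Adk, adenosine kinase, differed by 0.49 ± 0.29 between Kyoto day 14 and day 1 at an adjusted p of 0.58. Of purine salvage and synthesis 3 of 18 were tested, and the 2 with the smallest p were Atic at -0.66 ± 0.30 in Kyoto day 3 against day 1 and Aprt at 0.33 ± 0.18 in fed Kyoto against fed Wistar. Atic makes IMP, and Aprt recovers adenine.

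Pyrimidine synthesis and salvage was covered by 2 of 17 genes, the nucleoside diphosphate kinases. Nme2 differed by 0.73 ± 0.25 (SE) in Kyoto day 3 against day 1, and Nme1 by -0.62 ± 0.23 in Wistar day 3 against control, with adjusted p-values of 0.782 and 0.351. In Kyoto day 3 against day 1, Nme1 was at 0.57 ± 0.25, on the same side of 0 as Nme2. Of the UDP sugar list 4 of 8 were tested, and none passed. Ugdh, which oxidises UDP-glucose to UDP-glucuronate, was at 0.81 ± 0.27 in Wistar day 3 against control, with an adjusted p of 0.3. Ugt2b37, a glucuronosyltransferase, was at 1.32 ± 0.69 in Kyoto day 14 against day 1, and at -0.12 without Kyoto day 1 replicate 1. Among transporters, 4 of 10 were tested. Slc17a1, an anion transporter that carries urate, was at -0.59 ± 0.22 in fed Kyoto against fed Wistar and Slc28a2, a purine nucleoside carrier, at -0.62 ± 0.34 in Kyoto day 3 against day 1, and their adjusted p-values were 0.192 and 0.797.

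The genes whose log2 signals most resembled each enzyme over the 14 arrays were sought among 1501 tested genes. Dpyd was most like Nckap1 (r = 0.84), Plrg1 and Eloc (both 0.81). Dpys was most like Ephx2 (r = 0.92), Ccnd2 (0.88) and Mif (0.86). Upb1 was most like Cth (r = 0.81), Echs1 and Rpl35 (both 0.80). Xdh was most like Sord (r = 0.92), Acat2 and Mst1 (both 0.85), and Uox was most like Cd1d1 (r = 0.91), Mgst2 (0.90) and Anp32a (0.85). These correlations hold differences of strain, day and array together.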

How the data were processed

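Per the submitters' processing notes, MAS5 turned each scan into 1 linear intensity per probe set, and these values were deposited. For MAS5, no version or scaling target is given in the sources used here. The median signal was 233.1972 on 11 arrays. The 375 rows blank on some array, some of them control probe sets, were removed before scaling. The rest of the 24 control probe sets were dropped after it. Because the 2% trimmed means (885.1 to 1107) differed by 25.13%, above a limit of 5%, quantile normalisation of the log2 signals was applied (limma 3.58.1, R 4.3.3). Each gene kept its brightest probe set, and the upper 60% of 3181 features, 1909, were tested in 1 model of 6 group means with an intensity trend. The model was also run on simulated data with independent normal noise and no floor, batch or outlying array. That run therefore says nothing about those features of the real arrays. Arrays are not deep or shallow as libraries are; their number limits the precision.

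The members and lists were chosen with earlier results of these data known. Genes named were all probe sets of the 5 enzymes, the 3 most correlated genes of each, and from each list up to 4 past the threshold or else the 2 with the smallest p. Alternatives covered scaling, floor, filter, probe set rule, blocks, variance settings and each array left out; leaving out the 3 arrays with blank rows was chosen after seeing the data. Promoter letters were searched in Python 3.11.15. No protein sequence was used.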

Additional observations from a re-analysis of the deposited data

How the results depend on the processing

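Over the alternatives 810 values of the 5 genes were recomputed: 743 kept their sign, 67 turned it, and 3 passed the threshold. The largest main value among those that turned was 0.25 in size. The 3 were Dpys in fed Kyoto against fed Wistar with array weights (-0.52, adjusted p 0.0441) and Dpyd without Kyoto day 1 replicate 2 in Kyoto day 3 (1.98) and day 14 (2.27) against day 1. The causes were not tested.

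Signs turned as follows. With the signals as the authors scaled them, Wistar day 3 against control gave -0.27 for Dpys, -0.27 for Upb1 and -0.11 for Xdh. Under that scaling Wistar day 14 against day 3 gave 0.12 for Dpys and 0.065 for Xdh, Kyoto day 14 against day 3 gave -0.045 for Dpys, and strain by time gave -0.16 for Dpys and -0.18 for Upb1. With equal trimmed means, Wistar day 14 against control gave 0.035 for Xdh, Wistar day 3 against control -0.036 for Dpys and -0.033 for Upb1, and Wistar day 14 against day 3 -0.035 for Dpyd. With array weights, Wistar day 3 against control gave -0.068 for Dpys and -0.054 for Xdh, and strain by time 0.00 for Upb1. With arrays with blank rows as a block, Upb1 was -0.048 in Wistar day 3 against control and Xdh 0.029 in Kyoto day 14 against day 1. With the lot batch as a block (lot batch 1 on 11 arrays, no entry on 3), Dpys was -0.012 in Wistar day 3 against control and Upb1 -0.053 in fed Kyoto against fed Wistar. As the mean of a gene's probe sets, Dpyd was -0.062 in Wistar day 14 against day 3.

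Without Wistar control 2 and Wistar day 14 replicate 3, Wistar day 3 against control gave -0.13 for Dpys and -0.24 for Xdh, Wistar day 14 against day 3 gave -0.053 for Dpyd, fed Kyoto against fed Wistar gave -0.012 for Upb1, and strain by time gave -0.15 for Upb1. Without the 3 arrays with blank rows, Wistar day 14 against control gave 0.14 for Xdh, Wistar day 3 against control -0.052 for Upb1 and Wistar day 14 against day 3 -0.053 for Dpyd. There Dpys was 0.005 in Kyoto day 3 and day 14 against day 1, Xdh 0.07 and Ugt2b37 -0.12 in Kyoto day 14 against day 1, and Upb1 -0.012 in fed Kyoto against fed Wistar and -0.15 in strain by time.

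Leaving out each array in turn gave these lowest and highest values. In Kyoto day 3 against day 1, Dpys ran from -0.41 to 0.005 and Dpyd from 0.003 to 1.98. In Kyoto day 14 against day 1, Dpys ran from -0.41 to 0.005, Xdh from -0.25 to 0.07, Dpyd from 0.29 to 2.27 and Ugt2b37 from -0.12 to 2.77. In Kyoto day 14 against day 3, Dpys ran from -0.065 to 0.065. In fed Kyoto against fed Wistar, Upb1 ran from -0.012 to 0.23. In strain by time, Upb1 ran from -0.15 to 0.34, Dpyd from -0.067 to 0.54 and Uox from -0.29 to 0.082. In Wistar day 3 against control, Dpyd ran from -0.55 to 0.059, Dpys from -0.13 to 0.14, Upb1 from -0.052 to 0.11 and Xdh from -0.24 to 0.21. In Wistar day 14 against day 3, Dpyd ran from -0.26 to 0.35, Xdh from -0.23 to 0.083 and Upb1 from -0.003 to 0.46. In Wistar day 14 against control, Uox ran from -0.014 to 0.36, Xdh from -0.31 to 0.13 and Dpys from -0.26 to 0.021. A group left with 1 array is assumed to vary like the other groups.

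Counts of features past the threshold moved more. Fed Kyoto against fed Wistar, at 62, had 2 with no filter, 40 with the upper 40%, 20 with the lot batch block, 103 on the compared groups only, 135 with array weights and 12 to 58 when arrays were left out. Kyoto day 14 against day 1, at 1, had 3 with no filter, 2 with the mean of probe sets, 0 on the compared groups only, 0 with array weights, and 0 to 160 when arrays were left out. Wistar day 3 against control, at 0, had 1 with equal trimmed means, 2 with no filter, 4 with the mean of probe sets, 5 on the compared groups only, 18 with array weights, 5 without Wistar control 2 and Wistar day 14 replicate 3, and 8 without the arrays with blank rows. Wistar day 14 against control, at 0, had 1 with array weights, 5 without either set of arrays, and 0 to 7 when arrays were left out. Kyoto day 3 against day 1, at 0, had 2 with no filter, 1 without the arrays with blank rows, and 0 to 74 when arrays were left out. Wistar day 14 against day 3 had 1 with no filter, and Kyoto day 14 against day 3 had 1 with no filter and 1 with array weights, both at 0 otherwise.

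No paired analysis was possible because the labels give the arrays no replicate numbers shared between groups. The replicate numbers used here follow the order of the sample records and link no arrays between groups. With 2 or 3 arrays a group, SEs of 0.17 to 0.65 on the log2 scale limit what could be detected, and the third Uox probe set, at the floor on 6 arrays, bounds differences only.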
